A study of Mus musculus with 9 samples.

Results

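The genes described here carry pyruvate into mitochondria, turn it into acetyl-CoA or oxaloacetate, run the tricarboxylic acid (TCA) cycle, and supply acetyl-CoA outside mitochondria. The group holds 36 genes, taken by symbol from the 17596 genes of the deposited expression table, and all 36 were present. The study asked what the monocarboxylate transporter MCT1, which moves lactate and pyruvate across the plasma membrane, does in B cells that are activated to switch antibody class. Gene expression was measured by RNA sequencing of primary splenic B cells in 9 libraries. Control cells came from Mb1Cre mice, which express Cre recombinase in the B cell lineage, and Mct1-deficient cells came from Mct1f/fMb1Cre mice, in which Cre removes a floxed segment of Mct1, so every library carries the Mb1Cre allele. On day 0 the cells were untreated, with 2 control and 2 Mct1-deficient libraries. On day 3 the cells had been cultured for 3 days with IL-4 at 50 ng/ml and LPS at 10 μg/ml, with 2 control and 3 Mct1-deficient libraries. The labels name no mouse or litter, so the errors and p-values measure the spread between libraries, part of which may be technical.

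Pyruvate enters mitochondria through the mitochondrial pyruvate carrier. The pyruvate dehydrogenase complex then converts it into acetyl-CoA, while pyruvate carboxylase converts it into oxaloacetate, and citrate synthase joins both products into citrate. Citrate can be oxidised in the cycle or leave through the citrate carrier and be split by ATP citrate lyase into acetyl-CoA for lipid synthesis and protein acetylation, a supply that acetyl-CoA synthetases can also make from acetate. Activated lymphocytes are known for rapid growth, which draws on the cycle for both energy and building blocks.

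The authors deposited fragments per kilobase (FPKM), a unit scaled to gene length and to the mapped fragments of the library, so levels can be compared between genes. Over all genes the FPKM added up to between 477079 and 491459 in the day 0 libraries and to between 547355 and 563586 in the day 3 libraries. Libraries of the same group correlated with Pearson's r from 0.993 to 0.998 on log2(FPKM + 1), over the 10823 genes averaging 1 FPKM or more. Genes are no independent replicates. The targeted gene, listed under its symbol Slc16a1, had 22.6 and 23.0 FPKM in the control and 10.8, 9.81 and 9.50 FPKM in the Mct1-deficient libraries on day 3. On day 0 it had 4.33 and 3.80 FPKM in the control and 3.71 and 4.06 FPKM in the Mct1-deficient libraries, which overlap, so on day 0 the labels alone give the genotype. The B cell markers Cd79a, Cd79b, Ms4a1, Pax5, Cd22 and Blk summed to 3774 to 4197 FPKM on day 0 and to 1819 to 1912 FPKM on day 3. The 8 myeloid markers summed to 1126 to 1967 FPKM on day 0 and to 63.4 to 102 FPKM on day 3, with 6 of 8 at least 10 times higher on day 0, and Mpo was listed at 0 in 2 of the day 3 libraries. The 6 erythroid markers summed to 125 to 231 FPKM on day 0 and to 4.34 to 7.95 FPKM on day 3, when Hbb-bs was listed at 0 in all 5 libraries. The 5 T cell markers summed to 26.7 to 30.1 FPKM on day 0 and to 0.77 to 1.37 FPKM on day 3. The 4 NK cell markers summed to 67.0 to 82.8 FPKM on day 0 and to 85.3 to 98.4 FPKM on day 3. This higher sum came from Gzma alone, at 35.4 to 42.0 FPKM on day 0 and 79.5 to 92.5 FPKM on day 3. Ncr1, Nkg7 and Klrb1c were lower in every day 3 than in every day 0 library. The Y-linked Ddx3y, Eif2s3y and Kdm5d summed to at most 0.89 FPKM in both control and in 1 Mct1-deficient day 0 library, and to 66.9 to 103 FPKM in the other 6 libraries. In control cells the sex of the mice and activation therefore cannot be told apart, and the genotypes on day 0, and with them the interaction of genotype and day, are also unbalanced in sex. In bulk samples fewer cells of a type and less RNA per cell also cannot be told apart, and the part that other cells played in the changes with activation was not tested.

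Together the 36 genes made up a larger share of all FPKM after activation. Their summed level was 1444 ± 30.6 FPKM (SD, n = 2) in control and 1426 ± 8.95 FPKM (SD, n = 2) in Mct1-deficient cells on day 0, and 2053 ± 13.7 FPKM (SD, n = 2) and 2026 ± 10.4 FPKM (SD, n = 3) on day 3. This was 0.291% to 0.307% of all FPKM in the day 0 libraries and 0.362% to 0.373% in the day 3 libraries, with no overlap between the days. Mitochondrial malate dehydrogenase Mdh2 ranked highest of the 36 genes in every group. On day 0 the isocitrate dehydrogenase subunit Idh3g and citrate synthase Cs followed it, whereas on day 3 the mitochondrial aspartate aminotransferase Got2 took the next place, with Cs after it, in both genotypes. At the other end, pyruvate carboxylase Pcx stayed at or below 2.90 FPKM, and the cytosolic malic enzyme Me1 at or below 0.36 FPKM, in all 9 libraries.

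Each gene was tested with limma on log2(FPKM + 1), a scale that understates fold changes of low genes, and it was called where the Benjamini-Hochberg adjusted p was under 0.05 and the log2 fold change exceeded 0.5 in size. Of the 36 genes, 35 passed the filter of a mean of 1 FPKM and Me1 did not. With activation, 13 of 35 were called higher and 2 lower in control cells, against 24.8% and 33.0% of the 10823 genes tested. In Mct1-deficient cells 15 were called higher and 2 lower, against 23.4% and 33.2% of all genes. The calls in both genotypes covered 12 genes that rose (Pcx, Aco1, Idh2, Idh3a, Dlst, Suclg2, Sdhb, Sdhd, Acly, Slc25a1, Got1 and Got2) and 2 that fell (Idh1 and Acss1), where 21.4% and 30.0% of all genes were called in both. Pcx lay under 1 FPKM in every day 0 library and passed the filter only through its day 3 level, so its call rests on that selection, and without it 12 of 34 genes were called higher in control cells, 14 in Mct1-deficient cells and 11 in both. By adjusted p alone, 28 genes were higher and 5 lower in control cells (all genes 37.0% and 47.5%), 27 and 3 in Mct1-deficient cells (36.4% and 49.1%), and 27 and 3 in both (33.8% and 44.8%). Without the Mct1-deficient day 0 library that lacked Y-linked transcripts, the calls in Mct1-deficient cells numbered 15 higher and 2 lower, as with it. The median log2 fold change of the 35 genes was 0.46 in control and 0.42 in Mct1-deficient cells, while that of all genes tested was -0.12 and -0.14.

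**Figure D1:**
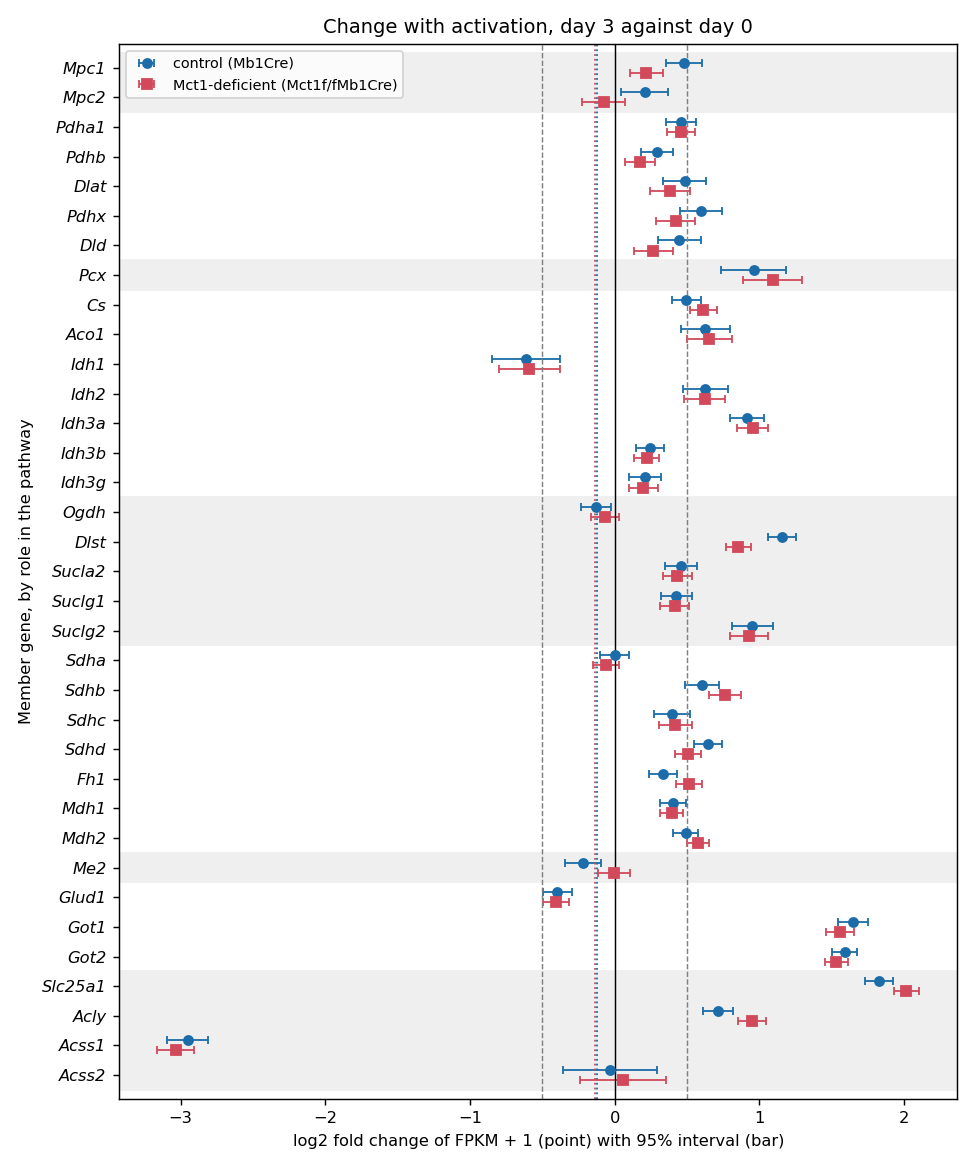
Log2 fold change of FPKM + 1 between day 3 and day 0 (horizontal axis) for the 35 members tested (vertical axis, by role in the pathway), in control (circles) and Mct1-deficient cells (squares). Bars are 95% intervals, dashed lines mark the limit of 0.5 in both directions and dotted lines the medians of all genes (-0.12 and -0.14). Slc25a1 lies farthest to the right (1.83 and 2.02) and Acss1 farthest to the left (-2.95 and -3.03).

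The split between rises and falls moved with how the libraries were scaled. The median of all genes was -0.31 in control and -0.30 in Mct1-deficient cells after scaling to a common total, and 0.06 in both after median-of-ratios scaling. Across the 10823 genes, the calls in control cells were 2687 higher and 3571 lower with the deposited values, 2078 and 4416 with a common total, and 3425 and 2761 with median-of-ratios scaling. The Mct1-deficient cells gave 2532 and 3588, 2010 and 4323, and 3333 and 2736, respectively. Among the 35 genes the higher calls in control cells went from 13 to 8 and to 25 under the same scalings, and the number of genes above 0 was 28 and 31, beside 29 with the deposited values. Of the 14 genes called in both genotypes, 8 (Acly, Acss1, Dlst, Got1, Got2, Idh3a, Slc25a1 and Suclg2) stayed called under every alternative run other than a log2 limit of 1.

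The largest changes of the group lay in citrate export and in acetate use. Slc25a1, the mitochondrial citrate carrier, had 20.3 and 19.85 FPKM in control and 18.85 and 19.2 FPKM in Mct1-deficient libraries on day 0, and 74.8 and 72.9 FPKM in control and 79.6, 82.45 and 78.4 FPKM in Mct1-deficient libraries on day 3. Every day 3 library lay far above every day 0 library. Its mean level was 3.68 times higher on day 3 in control (log2 fold change 1.83, SE 0.0440, adjusted p = 2.33e-11) and 4.21 times higher in Mct1-deficient cells (2.02, SE 0.0401, adjusted p = 7.02e-12). Acss1, the mitochondrial enzyme that makes acetyl-CoA from acetate, went the other way. It had 40.1 and 40.3 FPKM in control and 41.5 and 41.0 FPKM in Mct1-deficient libraries on day 0, and 4.53 and 4.12 FPKM in control and 3.98, 4.46 and 4.04 FPKM in Mct1-deficient libraries on day 3. The day 0 levels were thus 9.29 times those of day 3 in control (log2 fold change -2.95, SE 0.0634, adjusted p = 1.17e-11) and 9.91 times in Mct1-deficient cells (-3.03, SE 0.0579, adjusted p = 5.21e-12).

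The other members that supply cytosolic acetyl-CoA rose or held a low level. Acly, the ATP citrate lyase that splits exported citrate, had 58.9 and 57.3 FPKM in control and 52.8 and 55.0 FPKM in Mct1-deficient libraries on day 0. On day 3 it had 93.1 and 99.2 FPKM in control and 105, 103 and 108 FPKM in Mct1-deficient libraries. The days did not overlap, and the log2 fold change was 0.72 in control (adjusted p = 6.51e-08) and 0.95 in Mct1-deficient cells (adjusted p = 2.59e-09). Acss2, the acetyl-CoA synthetase of the cytosol and nucleus, had 5.05 and 3.61 FPKM in control and 5.13 and 3.94 FPKM in Mct1-deficient libraries on day 0, and 4.20 and 4.13 FPKM in control and 5.49, 4.11 and 4.67 FPKM in Mct1-deficient libraries on day 3. All 4 groups of Acss2 overlapped, and neither day effect passed the test (log2 fold change -0.03 with adjusted p = 0.843 and 0.06 with adjusted p = 0.694).

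**Figure D2:**
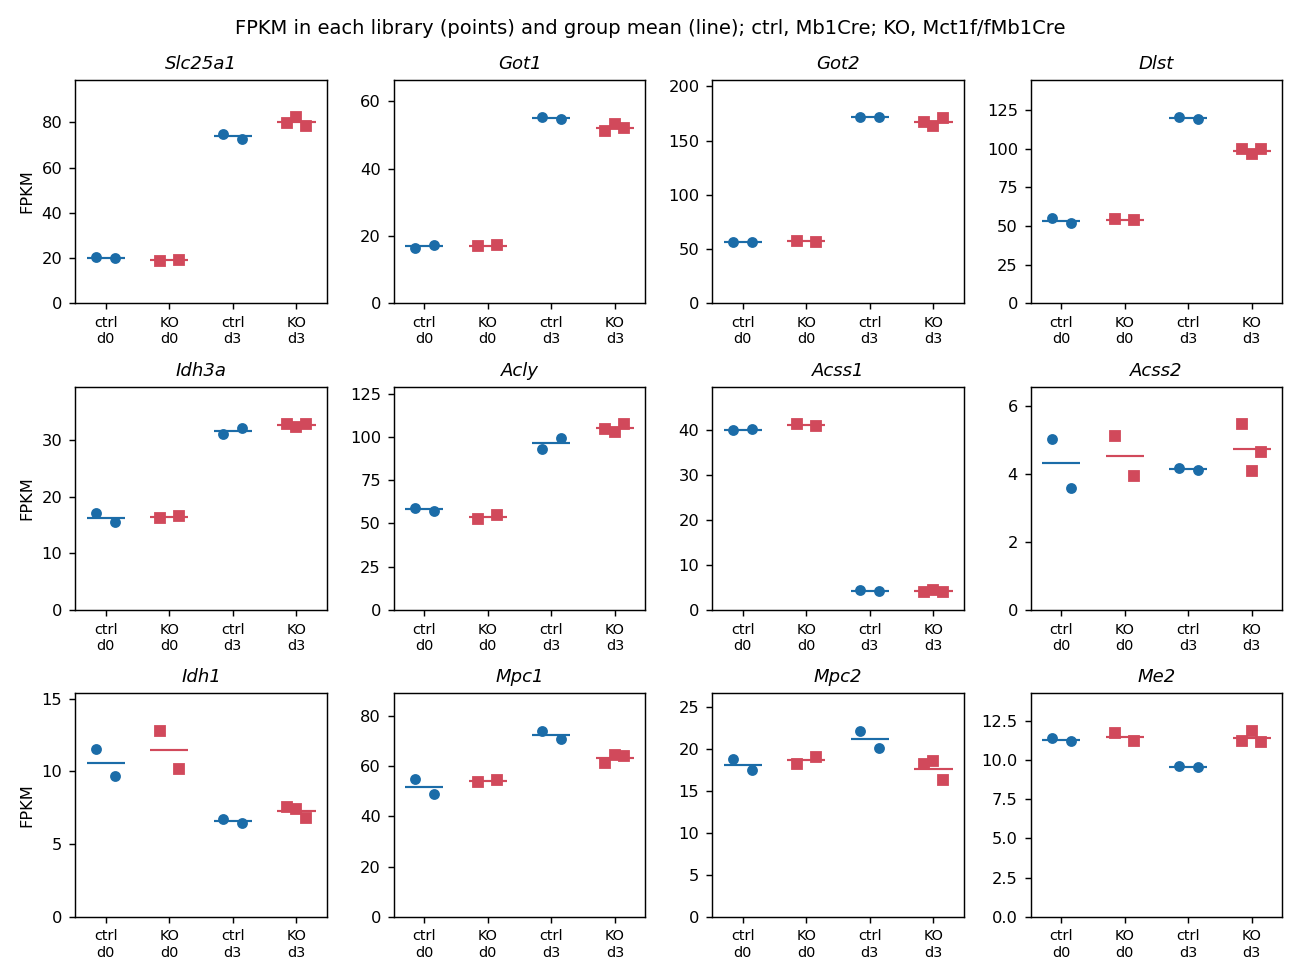
FPKM of 12 members in each of the 9 libraries (points) with group means (lines), in control (ctrl, circles) and Mct1-deficient cells (KO, squares) on day 0 (d0) and day 3 (d3), each vertical axis starting at 0. Slc25a1, Got1, Got2, Dlst, Idh3a and Acly are higher in every day 3 than in every day 0 library, Acss1 and Idh1 are lower, and Acss2 overlaps between the days.

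The promoter windows of 3 members are printed because Slc25a1 had the largest rise, Acss1 the largest fall, and Dlst the smallest p between the genotypes on day 3. They are RefSeq sequences of build GRCm38.p6, from 250 bases before to 50 bases after the annotated start, read 5′ to 3′ along the gene's strand, and span chr16:17928170-17928469 on the minus strand for Slc25a1, chr2:150668191-150668490 on the minus strand for Acss1 and chr12:85110583-85110882 on the plus strand for Dlst. Capitals mark the E-box CACGTG, bound by MYC and related factors, and the CCAAT box, here as its reverse complement ATTGG.
Slc25a1: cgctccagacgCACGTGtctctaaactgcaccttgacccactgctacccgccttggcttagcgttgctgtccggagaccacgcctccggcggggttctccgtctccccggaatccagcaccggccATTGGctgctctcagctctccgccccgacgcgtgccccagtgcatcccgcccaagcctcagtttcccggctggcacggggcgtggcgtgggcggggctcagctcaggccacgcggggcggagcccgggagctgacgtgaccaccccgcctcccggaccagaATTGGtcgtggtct
Acss1: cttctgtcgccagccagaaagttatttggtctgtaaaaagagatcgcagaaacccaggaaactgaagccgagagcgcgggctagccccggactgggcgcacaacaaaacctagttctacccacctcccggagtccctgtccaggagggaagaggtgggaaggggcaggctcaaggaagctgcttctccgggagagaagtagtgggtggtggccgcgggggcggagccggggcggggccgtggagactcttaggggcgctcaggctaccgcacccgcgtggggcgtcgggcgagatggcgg
Dlst: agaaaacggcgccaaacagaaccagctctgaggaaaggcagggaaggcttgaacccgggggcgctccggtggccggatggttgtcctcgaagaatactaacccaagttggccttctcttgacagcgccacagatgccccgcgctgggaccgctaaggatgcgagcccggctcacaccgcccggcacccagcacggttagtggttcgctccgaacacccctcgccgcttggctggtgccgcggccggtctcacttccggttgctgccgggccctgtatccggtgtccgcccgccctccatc
The Slc25a1 window holds 1 E-box, which begins at -239 from the start, and 2 CCAAT boxes on the other strand, at -125 and 37. The windows of Acss1 and Dlst hold none of these letters. Windows were found for 33 of the 36 genes, 42 windows in all, and Sdhc, Me2 and Idh3a had none. The E-box lay in the windows of 3 genes (Ogdh, Pcx and Slc25a1), in 5 of 42 windows (11.9%), against 7.15% of all 32851 windows, and the CCAAT box, searched on both strands, lay in 27 of 42 windows (64.3%) against 37.4% of all windows. The NRF1 motif, a palindrome searched by its full letters, lay in none of the 42 windows and in 0.971% of all windows. A match describes the letters in a window and does not show that a factor binds there.

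Both aspartate aminotransferases, which interconvert aspartate and oxaloacetate as part of the malate-aspartate shuttle, rose to a similar extent. The cytosolic Got1 had 16.4 and 17.4 FPKM in control and 16.9 and 17.2 FPKM in Mct1-deficient libraries on day 0, and 55.3 and 54.7 FPKM in control and 51.1, 53.2 and 52.1 FPKM in Mct1-deficient libraries on day 3. The mitochondrial Got2 had 56.3 and 56.5 FPKM in control and 57.6 and 56.6 FPKM in Mct1-deficient libraries on day 0, and 172 and 172 FPKM in control and 167, 164 and 171 FPKM in Mct1-deficient libraries on day 3. In both genes the days were far apart and the genotypes close together. The log2 fold changes were 1.65 and 1.56 for Got1 (adjusted p = 7.26e-11 and 4.98e-11) and 1.59 and 1.53 for Got2 (adjusted p = 2.92e-11 and 1.72e-11) in control and Mct1-deficient cells. Glud1, the mitochondrial glutamate dehydrogenase, lay between 63.7 and 65.5 FPKM on day 0 and between 47.5 and 50.4 FPKM on day 3. Its log2 fold changes of -0.40 and -0.41 passed the adjusted p (6.75e-06 and 2.41e-06) but stayed within the log2 limit with the deposited values. Among the alternatives they reached -0.60 and -0.58.

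Pyruvate carboxylase, which feeds oxaloacetate into the cycle, rose from a low level. Pcx had 0.66 and 0.53 FPKM in control and 0.72 and 0.64 FPKM in Mct1-deficient libraries on day 0, and 2.13 and 2.08 FPKM in control and 2.36, 2.90 and 2.51 FPKM in Mct1-deficient libraries on day 3. The days did not overlap, and the mean level was 3.54 times higher in control and 3.81 times higher in Mct1-deficient cells. On the log2(FPKM + 1) scale this was 0.96 and 1.09 (SE 0.101 and 0.0923). Because Pcx passed the filter of 1 FPKM only through day 3, these values are a description. With no filter on low values the adjusted p was 3.45e-05 and 9.33e-06, and with a pseudocount of 5 the log2 values were 0.34 and 0.42, within the limit.

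The pyruvate carrier and the pyruvate dehydrogenase complex moved less. Mpc1, a subunit of the mitochondrial pyruvate carrier, had 54.8 and 48.8 FPKM in control and 53.75 and 54.45 FPKM in Mct1-deficient libraries on day 0, and 74.2 and 71.0 FPKM in control and 61.1, 64.4 and 64.0 FPKM in Mct1-deficient libraries on day 3. Mpc2, the partner subunit, had 18.85 and 17.45 FPKM in control and 18.3 and 19.1 FPKM in Mct1-deficient libraries on day 0, and 22.2 and 20.1 FPKM in control and 18.2, 18.6 and 16.3 FPKM in Mct1-deficient libraries on day 3. The days were apart for Mpc1 in both genotypes and for Mpc2 in control cells, and the Mct1-deficient Mpc2 values of the days overlapped. The log2 fold changes were 0.48 (adjusted p = 1.00e-05) and 0.22 (adjusted p = 0.00206) for Mpc1 and 0.21 (adjusted p = 0.0201) and -0.08 (adjusted p = 0.302) for Mpc2 in control and Mct1-deficient cells, none beyond the log2 limit. After scaling to a common total, the value of Mpc2 in control cells was 0.017 (adjusted p = 0.835) and that of Mpc1 in Mct1-deficient cells 0.044 (adjusted p = 0.464). The control value of Mpc2 also failed the adjusted p without control replicate 2 of day 0 or control replicate 1 of day 3, and the Mct1-deficient value of Mpc1 after quantile normalization. With median-of-ratios scaling Mpc1 was called in control cells (0.69, adjusted p = 3.85e-07) and not in Mct1-deficient cells (0.44).

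All 5 tested members of the pyruvate dehydrogenase complex were higher on day 3 by adjusted p in both genotypes with the deposited values, with log2 fold changes of 0.29 to 0.60 in control and 0.17 to 0.46 in Mct1-deficient cells, where 33.8% of all genes were higher by that measure in both. Pdha1, the catalytic alpha subunit on which the complex is switched off by phosphorylation, had 30.9 and 29.2 FPKM in control and 30.55 and 29.9 FPKM in Mct1-deficient libraries on day 0, and 41.7 and 41.4 FPKM in control and 40.9, 42.0 and 42.85 FPKM in Mct1-deficient libraries on day 3. The days did not overlap and the genotypes did, with a log2 fold change of 0.46 in each (adjusted p = 2.92e-06 and 1.22e-06). Its partner subunit Pdhb, the acetyltransferase Dlat and the dihydrolipoamide dehydrogenase Dld, which the 2-oxoglutarate dehydrogenase complex shares, also stayed within the log2 limit with the deposited values. The value of Pdhb in Mct1-deficient cells was -0.00051 after scaling to a common total. Among the alternatives, values in control and Mct1-deficient cells reached 0.66 and 0.67 for Pdha1 and 0.68 and 0.58 for Dlat. Those of Dld reached 0.65 and 0.48, and those of Pdhb 0.501 and 0.39. Staying within the limit thus depended on the processing. Pdhx, which anchors Dld in the complex, was called in control cells (0.60, adjusted p = 5.56e-06) and not in Mct1-deficient cells (0.42, adjusted p = 4.88e-05), and this difference did not pass the interaction test (-0.18, adjusted p = 0.245). With median-of-ratios scaling it was called in both genotypes (0.79 and 0.61), and after scaling to a common total in neither (0.42 and 0.27).

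Of the 7 genes from citrate to 2-oxoglutarate, 6 were higher and 1 lower on day 3 by adjusted p in both genotypes with the deposited values, against 33.8% and 44.8% of all genes. Cs, citrate synthase at the entry of the cycle, had 91.5 and 89.7 FPKM in control and 87.4 and 87.2 FPKM in Mct1-deficient libraries on day 0, and 128 and 128 FPKM in control and 139, 128 and 136 FPKM in Mct1-deficient libraries on day 3. The days did not overlap, and the log2 fold change was just under the limit in control (0.50, adjusted p = 1.17e-06) and above it in Mct1-deficient cells (0.61, adjusted p = 8.06e-08), a difference that did not pass the interaction test (0.12, adjusted p = 0.273). With median-of-ratios scaling Cs was called in both genotypes (0.71 and 0.83), and after scaling to a common total in neither (0.30 and 0.44). Aco1, the cytosolic aconitase that also acts as an iron sensor, rose by 0.63 and 0.66 on the log2 scale.

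The isocitrate dehydrogenases did not move as a unit. Idh3a, the catalytic subunit of the mitochondrial NAD-dependent enzyme, rose from between 15.5 and 17.1 FPKM on day 0 to between 31.1 and 32.9 FPKM on day 3, with log2 fold changes of 0.92 and 0.95 (adjusted p = 2.19e-08 and 6.47e-09). Its regulatory partners Idh3b (0.24 and 0.22) and Idh3g (0.21 and 0.20) stayed within the limit, and the value of Idh3g in control cells was -0.0041 after quantile normalization. The mitochondrial NADP-dependent Idh2 rose from between 15.55 and 18.5 FPKM to between 24.8 and 28.6 FPKM (0.63 and 0.62). Its cytosolic counterpart Idh1 had 11.5 and 9.67 FPKM in control and 12.8 and 10.1 FPKM in Mct1-deficient libraries on day 0, and 6.72 and 6.42 FPKM in control and 7.55, 7.42 and 6.77 FPKM in Mct1-deficient libraries on day 3. The lowest day 0 library of Idh1 lay above the highest day 3 library, but the day 0 replicates differed by more than those of day 3. The log2 fold changes of Idh1 were -0.61 (SE 0.106, adjusted p = 0.00023) and -0.59 (SE 0.0964, adjusted p = 0.000144). These calls ended without day 0 control replicate 1 (-0.50) and without day 0 Mct1-deficient replicate 1 (-0.44), respectively, and, in both genotypes, with median-of-ratios or quantile scaling or a pseudocount of 5.

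In the 2-oxoglutarate dehydrogenase complex the core and the entry subunit differed. Dlst, the succinyltransferase core, had 55.0 and 51.7 FPKM in control and 54.5 and 53.6 FPKM in Mct1-deficient libraries on day 0, and 121 and 119 FPKM in control and 99.95, 96.5 and 99.5 FPKM in Mct1-deficient libraries on day 3. Ogdh, the subunit that decarboxylates 2-oxoglutarate, had 62.6 and 61.9 FPKM in control and 60.9 and 58.0 FPKM in Mct1-deficient libraries on day 0, and 57.5 and 56.1 FPKM in control and 57.0, 54.6 and 58.7 FPKM in Mct1-deficient libraries on day 3. Dlst thus stood below Ogdh in every day 0 library and above it in every day 3 library. Dlst rose by 1.16 (SE 0.0438, adjusted p = 6.64e-10) and 0.86 (SE 0.0400, adjusted p = 3.36e-09) on the log2 scale in control and Mct1-deficient cells. The values of Ogdh were -0.13 (adjusted p = 0.0229) and -0.07 (adjusted p = 0.172), and that of control cells was 0.08 after median-of-ratios scaling.

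The 3 succinyl-CoA synthetase subunits were all higher on day 3 by adjusted p in both genotypes, as were 33.8% of all genes. The beta subunit of the GTP-forming enzyme, Suclg2, rose by 0.95 and 0.93 on the log2 scale, to between 25.2 and 27.3 FPKM from between 12.5 and 14.2 FPKM. The beta subunit of the ATP-forming enzyme, Sucla2 (0.46 and 0.43), and the shared alpha subunit Suclg1 (0.43 and 0.41) stayed within the limit with the deposited values. Among the alternatives they reached 0.66 and 0.64 for Sucla2 and 0.63 in both genotypes for Suclg1.

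Succinate dehydrogenase, which is also complex II of the respiratory chain, showed unequal changes among its subunits. The iron-sulfur subunit Sdhb rose by 0.61 and 0.76, and the membrane anchor Sdhd by 0.65 and 0.51, on the log2 scale. The Sdhd value in Mct1-deficient cells was 0.49 without day 3 Mct1-deficient replicate 2, which ends its call. That call also ended with a pseudocount of 5, a common total or quantile normalization. In control cells the Sdhd call ended with a common total, and the Sdhb call with a common total or quantile normalization. The second anchor Sdhc had 0.40 and 0.42 and stayed within the limit with the deposited values, and reached 0.61 and 0.64 among the alternatives. The flavoprotein Sdha, which binds succinate, lay between 68.4 and 72.2 FPKM on day 0 and between 66.0 and 70.7 FPKM on day 3, and its differences did not pass the test (0.00 with adjusted p = 0.974 and -0.06 with adjusted p = 0.201). Fumarase Fh1 (0.33 and 0.52), the cytosolic malate dehydrogenase Mdh1 (0.40 and 0.39) and the mitochondrial Mdh2 (0.49 and 0.58) were all higher on day 3 by adjusted p. With the deposited values Fh1 and Mdh2 were called in Mct1-deficient and not in control cells, and the interaction of genotype and day did not pass the test for either (adjusted p = 0.0836 and 0.36). This split depended on the scaling. With median-of-ratios scaling both genes were called in both genotypes (0.54 and 0.73 for Fh1, 0.71 and 0.79 for Mdh2), and with a common total or quantile normalization in neither, and the Fh1 call also ended with a pseudocount of 5.

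Ratios of partner enzymes within a library do not change when a whole library is multiplied by 1 factor, although quantile normalization can change them, and 7 pairs were compared between the 4 day 0 and the 5 day 3 libraries. Mitochondrial isocitrate dehydrogenase gained on the cytosolic form, as Idh1/Idh2 went from between 0.622 and 0.709 to between 0.253 and 0.284. The acetyl-CoA synthetases changed balance, with Acss2/Acss1 at 0.0897 to 0.126 on day 0 and at 0.922 to 1.38 on day 3. Acly/Acss2 went from between 10.3 and 15.9 to between 19.1 and 25.0. The ATP-forming over the GTP-forming succinyl-CoA synthetase subunit, Sucla2/Suclg2, went from between 1.15 and 1.29 to between 0.816 and 0.929, so the order of both genes turned. Mpc1/Mpc2 was 0.29 higher and Mdh1/Mdh2 0.14 lower on the log2 scale, on day 3. For these 6 pairs the days did not overlap, and the exact two-sided permutation test gave p = 0.0159, the smallest it can give with 4 against 5 libraries (0.0185 adjusted over the 7 pairs). Of all genes taken singly, 91.9% in control and 89.8% in Mct1-deficient cells also did not overlap between the days. How often ratios of other gene pairs separate the days was not computed, so the separation is not shown to be particular to these pairs. Got1/Got2 differed by 0.08 on the log2 scale (exact permutation p = 0.0635, adjusted p = 0.0635).

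**Figure D3:**
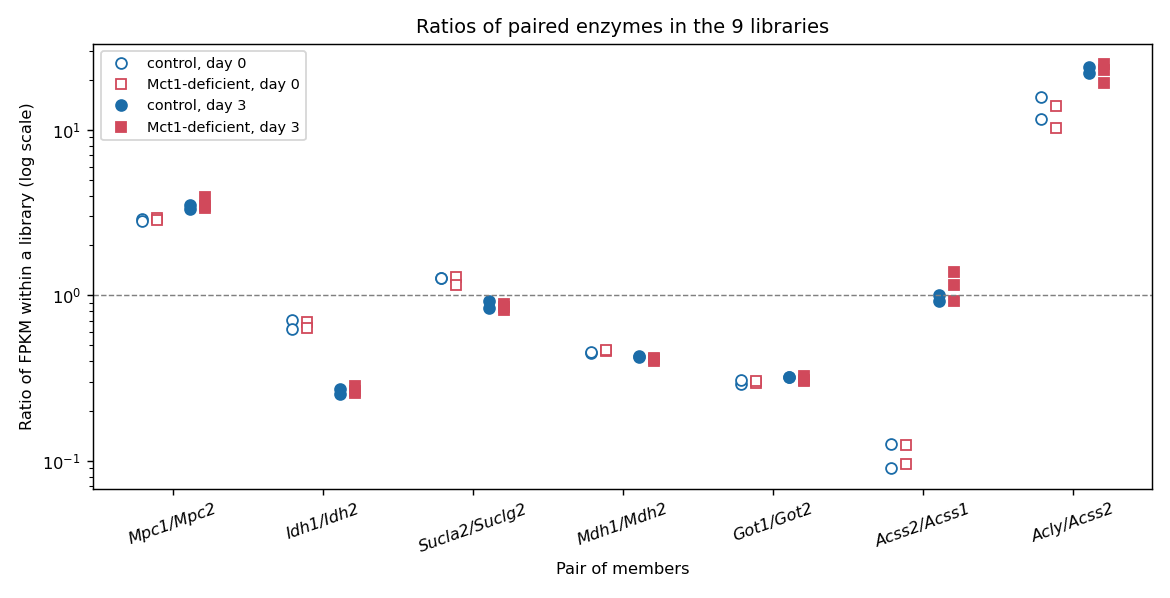
Ratio of FPKM of partner enzymes within each of the 9 libraries (vertical axis, log scale) for 7 pairs of members, in control (circles) and Mct1-deficient cells (squares) on day 0 (open) and day 3 (filled). Acss2/Acss1 moves from between 0.0897 and 0.126 to between 0.922 and 1.38, and Idh1/Idh2 from between 0.622 and 0.709 to between 0.253 and 0.284.

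The comparison of genotypes on day 3 asked how loss of Mct1 alters these transcripts in activated cells. None of the 35 genes was called, in either direction, where 0.887% of all genes tested were called higher and 1.53% lower (2.42% together). All 35 of the 95% intervals lay within 0.5 of 0 on the log2 scale, from -0.39 for Mpc2 to 0.45 for Acss2, and the median was -0.01 for the 35 genes and for all genes. By limma's adjusted p alone, 1 gene was higher and 4 were lower, against 6.03% and 9.21% of all genes (15.2% together). At an unadjusted p under 0.05 there were 10 of 35, against 29.0% of all genes. The libraries of the genotypes did not overlap for 9 genes that were higher and 9 that were lower in Mct1-deficient cells, against 21.0% and 26.1% of all genes. These shares are close to those of all genes. The summed myeloid markers also differed, at 95.95 and 102 FPKM in control and 63.4 to 65.8 FPKM in Mct1-deficient libraries on day 3, mostly through Ly6c2 (85.6 and 81.0 FPKM against 39.9, 41.3 and 40.4 FPKM), while Lyz2 stood at 11.5 and 10.0 FPKM against 16.8, 17.6 and 20.4 FPKM. Their part in the differences between the genotypes was not tested.

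The gene with the smallest p was Dlst, whose day 3 values were given above. Its 3 Mct1-deficient libraries all lay below the 2 control libraries, at 82.2% of the control mean, with a log2 fold change of -0.28 (SE 0.0400, adjusted p = 0.00113). This adjusted p stayed under 0.05 in all 19 alternatives that kept the adjusted p as the criterion, from 0.000839 to 0.018. The mitochondrial malic enzyme Me2, which makes pyruvate from malate, was the only one of the 5 genes with a higher level in Mct1-deficient cells. Me2 had 9.60 and 9.57 FPKM in control and 11.2, 11.9 and 11.2 FPKM in Mct1-deficient libraries on day 3, without overlap, and 11.4 and 11.2 FPKM in control and 11.7 and 11.2 FPKM in Mct1-deficient libraries on day 0. Its log2 fold change on day 3 was 0.23 (SE 0.0510, adjusted p = 0.0126), and the adjusted p was 0.0812 without control replicate 1 and 0.0783 without control replicate 2 of day 3.

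Both pyruvate carrier subunits were lower in Mct1-deficient cells on day 3, at 87.0% of the control mean for Mpc1 (-0.20, SE 0.0517, adjusted p = 0.0272) and 83.6% for Mpc2 (-0.25, SE 0.0670, adjusted p = 0.0318). Dld, the dehydrogenase shared by both complexes, had 38.0 and 41.25 FPKM in control and 34.35, 33.9 and 33.65 FPKM in Mct1-deficient libraries on day 3, and 29.4 and 28.1 FPKM in control and 26.1 and 30.2 FPKM in Mct1-deficient libraries on day 0. The day 3 genotypes did not overlap for these 3 genes, and those of day 0 did. The log2 fold change of Dld on day 3 was -0.22 (SE 0.0611, adjusted p = 0.0379). These 3 results were weak. The adjusted p of Mpc1 lay between 0.0522 and 0.197 when any 1 of the 5 day 3 libraries was left out, and that of Dld between 0.0681 and 0.262, while that of Mpc2 was 0.258 without control replicate 1 and 0.0983 without Mct1-deficient replicate 3 of day 3.

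Fh1, the sixth gene by p, had 60.9 and 57.8 FPKM in control and 65.1, 65.2 and 64.8 FPKM in Mct1-deficient libraries on day 3 and did not pass (0.13, adjusted p = 0.0523). Slc25a1 (0.12) and Acly (0.13), the citrate export genes, both had an adjusted p of 0.0769, and their genotypes did not overlap on day 3. Of the 5 genes with the widest response to activation in control cells, Dlst thus passed the adjusted p between the genotypes and Slc25a1 did not. For the other 3 the log2 values were -0.05 for Acss1, -0.08 for Got1 and -0.04 for Got2, with adjusted p of 0.668, 0.277 and 0.528. Among the control points of the pathway, Pdha1 (0.01), Cs (0.06) and Ogdh (0.00) lay near 0, with adjusted p of 0.909, 0.358 and 0.996, and the 95% interval of Pcx, at 0.21, reached 0.41. None of the 7 partner ratios passed between the genotypes on day 3, with exact permutation p from 0.2 to 1. With 3 against 2 libraries this test cannot give a p under 0.2. Mdh1/Mdh2 lay at that floor without overlap, at 0.399 to 0.417 in Mct1-deficient and 0.423 and 0.431 in control libraries.

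**Figure D4:**
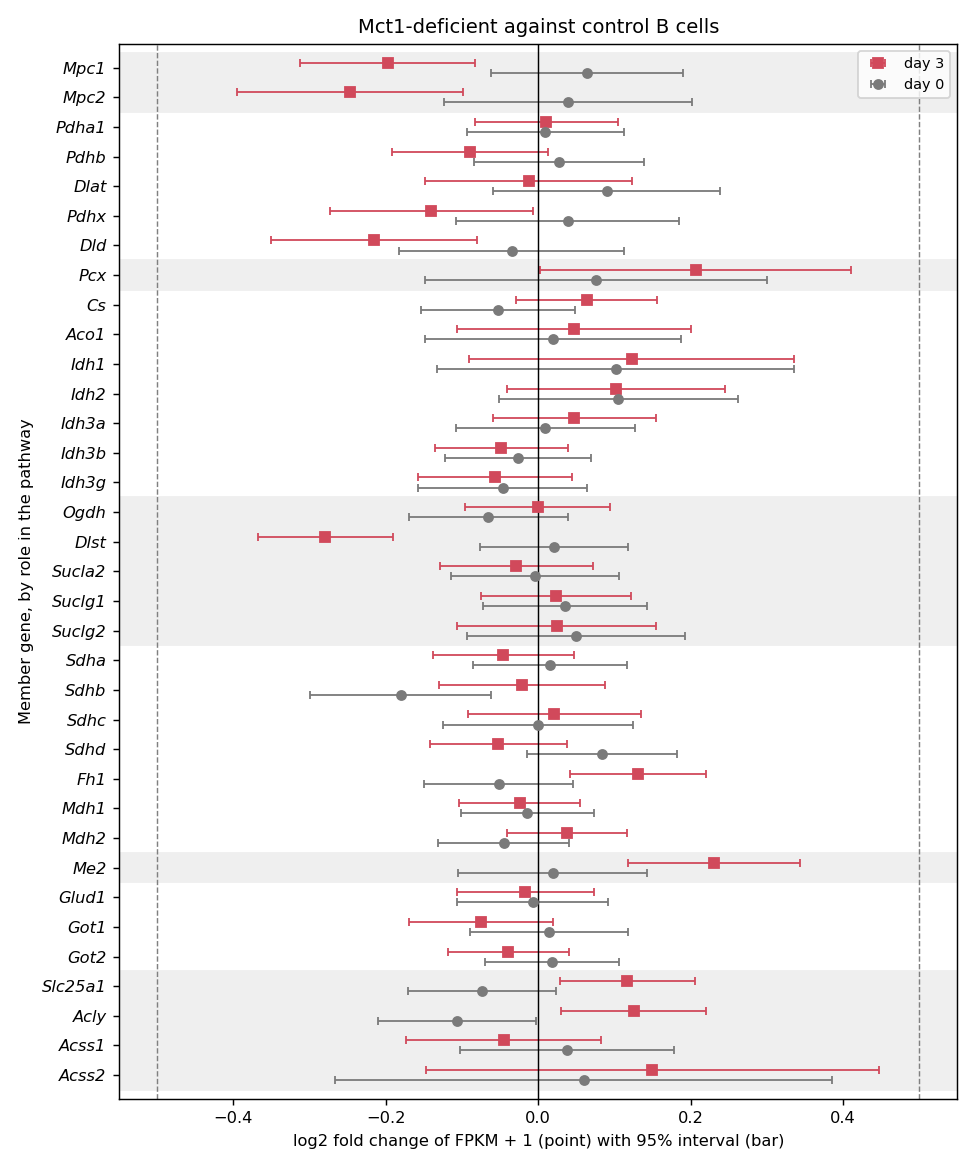
Log2 fold change of FPKM + 1 between Mct1-deficient and control cells (horizontal axis) for the 35 members tested (vertical axis, by role), on day 3 (squares) and day 0 (circles). Bars are 95% intervals and dashed lines mark the limit of 0.5 in both directions, and every interval lies between -0.39 and 0.45.

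Before activation, with 2 against 2 libraries, fewer genes passed between the genotypes, among the 35 as among all genes. On day 0 none of the 35 genes was called, where 0.277% of all genes were called, and none passed limma's adjusted p alone, where 0.416% of all genes did. At an unadjusted p under 0.05 there were 2 of 35 against 11.7% of all genes. These were Sdhb (-0.18, adjusted p = 0.248) and Acly (-0.11, adjusted p = 0.417). The libraries of the genotypes did not overlap for 11 of 35 genes (31.4%), against 38.4% of all genes. All 35 of the 95% intervals lay within 0.5 of 0.

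Whether the effect of genotype differed between the days was tested by the interaction of genotype and day. None of the 35 genes was called, where 3.23% of all genes were called, and 2 passed limma's adjusted p alone, against 9.42% of all genes. For Dlst the effect of genotype was 0.02 on day 0 and -0.28 on day 3, an interaction of -0.30 (SE 0.0593, adjusted p = 0.0121). Acly went from -0.11 on day 0 to 0.13 on day 3, an interaction of 0.23 (SE 0.0638, adjusted p = 0.0467). The adjusted p of Dlst was 0.0539 without control replicate 1 of day 3, and that of Acly lay between 0.0559 and 0.175 whichever of the 9 libraries was left out. Without the Mct1-deficient day 0 library that held Y-linked transcripts, replicate 1, the remaining day 0 libraries all lacked them, and the interaction was -0.29 for Dlst (adjusted p = 0.0397) and 0.20 for Acly (adjusted p = 0.136). The interaction did not pass for Mpc1 (-0.26, adjusted p = 0.059), Mpc2 (-0.29, adjusted p = 0.101), Dld (-0.18, adjusted p = 0.246) or Me2 (0.21, adjusted p = 0.11).

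A list of 39 further genes of the pathway, of which 35 passed the filter, held 15 genes called higher and 7 called lower with activation in control cells, and 17 and 6 in Mct1-deficient cells, against 24.8% and 33.0%, and 23.4% and 33.2%, of all genes. The largest rises were those of Hmgcs1 and Acat2, which use cytosolic acetyl-CoA on the way to sterols, and of Ldha, the lactate dehydrogenase subunit that favours lactate formation. Their log2 fold changes in control and Mct1-deficient cells were 3.15 and 3.23, 2.89 and 2.94, and 2.35 and 2.34. Ldhb, the other lactate dehydrogenase subunit, had 2.50 to 3.64 FPKM on day 0 and 0.04 to 0.24 FPKM on day 3 and passed the filter only through day 0, so its lower calls are a description, and without it 6 and 5 genes were called lower. The largest falls among the other genes were those of Pdk2, a kinase that inhibits pyruvate dehydrogenase (-1.72 and -1.52), and glutamine synthetase Glul (-1.58 and -1.68). The kinases of this enzyme did not move together, as Pdk1 and Pdk3 were called higher in both genotypes. In control cells the mean of Pdk1 went from 12.15 to 21.9 FPKM and that of Pdk3 from 12.8 to 37.3 FPKM. Of its phosphatases, Pdp1 was called lower and Pdp2 higher in both genotypes. None of the 35 was called between the genotypes on either day.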

How the data were processed

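RNA sequencing covered 9 libraries of primary mouse B cells, with groups taken from their labels. For 17596 genes the authors deposited FPKM values. The submitters' processing notes name Bowtie2, GRCm38 and mm10, while the quantifier, annotation and strand setting are not given in the sources used here. FPKM hold no read counts and their low values showed no common step, so depth is unknown and no counting interval is given.

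From the deposited FPKM, log2(FPKM + 1) of the 10823 genes averaging 1 FPKM or more was fitted with limma 3.58.1 in R 4.3.3, with 4 group means, trended empirical Bayes moderation and Benjamini-Hochberg adjustment over all genes tested. Calls needed an adjusted p under 0.05 together with a log2 fold change beyond 0.5 in either direction. Ratios used exact permutation tests (scipy 1.17.1, Python 3.11.15). Values in every library were given for control points of the pathway, the 6 members with the smallest p between genotypes on day 3, and the 5 largest rises and falls among members called in both genotypes, of which only 2 fell. Members and lists were chosen with earlier results of these data known.

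On simulated data for genotype on day 3 (10823 genes), changes of 0.25, 0.6 and 1 on the log2 scale were found by adjusted p in 42.6%, 92.4% and 97.0% of cases, and 6 of 10623 unchanged genes passed. With the log2 limit as well, these shares were 0%, 86.4% and 97.0%. Errors were drawn independently for each gene, and fewer genes were changed than the 15.2% that passed in the data. The shares may therefore differ in the data. Alternatives were pseudocounts of 0.1 and 5, other filters, scalings and log2 limits, a fit without trend or with the compared groups alone, a replicate block, and each library left out in turn. Gene locations and promoters came from RefSeq.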

Additional observations from a re-analysis of the deposited data

Results flagged for a closer look

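The 3 genes named here were singled out because the effect of genotype differed between the days by the interaction term of the limma fit, at a Benjamini-Hochberg adjusted p under 0.05. They are 2 of 35 members (5.71%) and 1 of 35 further genes (2.86%), against 9.42% of all genes. Dlst had an interaction of -0.30 on the log2 scale (adjusted p = 0.0121) and Acly one of 0.23 (adjusted p = 0.0467), both below the log2 limit of 0.5. That of Acly did not pass in limma after scaling to a common total (adjusted p = 0.0578) or quantile normalization (adjusted p = 0.061). The third, Slc1a5, a glutamine transporter of the list of further pathway genes, is named after its values were seen. It had 81.9 and 85.75 FPKM in control and 109 and 114 FPKM in Mct1-deficient libraries on day 0, and 88.1 and 87.7 FPKM in control and 94.4, 102 and 98.8 FPKM in Mct1-deficient libraries on day 3. Mct1-deficient cells were higher on both days, by 0.41 (adjusted p = 0.00496) and 0.16 (adjusted p = 0.0341) on the log2 scale, and the interaction was -0.25 (adjusted p = 0.0436). Of the day 0 libraries only Mct1-deficient replicate 1 held Y-linked transcripts, as all day 3 libraries did, so genotype and sex are unbalanced in these 3 interactions. Its Slc1a5 level was 109 FPKM, and that of replicate 2, which lacked them, was 114 FPKM. No group held enough libraries for a check of single outlying libraries.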

How the results depend on the processing

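Among the members, no called value changed sign under any alternative. Between genotypes and for the interaction, the counts of calls stayed at 0 under every alternative except that without a log2 limit they were 1 higher and 4 lower on day 3, and 1 higher and 1 lower for the interaction. With activation in control cells (13 higher, 2 lower), they were 28 and 5 without a log2 limit, 4 and 1 at a limit of 1, 8 higher with a common total, 25 higher and 1 lower with median-of-ratios scaling, and 1 lower with a pseudocount of 5. In Mct1-deficient cells (15 higher, 2 lower), they were 27 higher without a limit, 4 and 1 at a limit of 1, and 9 higher with a common total. There, median-of-ratios scaling gave more than 15 higher and 1 lower, with a member median of 0.64 beside 0.42 with the deposited values. A pseudocount of 5 gave 1 lower. Leaving out each library gave 13 to 17 higher and 1 to 2 lower in control cells, 14 to 15 and 1 to 2 in Mct1-deficient cells, and 0 between genotypes. The lone sample this leaves in a group is assumed to vary like the others. The Got1/Got2 ratio ranged from 0.064 to 0.092 on the log2 scale with a library left out, and passed its exact permutation test only without day 0 control replicate 2. Mdh1/Mdh2 was -0.087 in control and -0.18 in Mct1-deficient libraries alone. Same-numbered libraries showed little shared deviation (r from -0.122 to 0.0642 across genes). In groups of 2 the deviations of both libraries mirror each other, so this check cannot settle whether the numbers pair the libraries. With the replicate block the counts of calls were unchanged (13 and 2, 15 and 2, and 0 between genotypes and for the interaction), and among the 5 genes that passed adjusted p alone on day 3 the block gave 0.0783 for Mpc1, 0.119 for Mpc2 and 0.109 for Dld. A crossed pairing of the control libraries, chosen after seeing the data, gave 13 higher and 2 lower. The causes were not tested. With 2 or 3 libraries a group, small differences could be missed.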
